A study of Mus musculus with 8 samples.

Results

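The phagocyte NADPH oxidase genes Ncf1, Ncf4 and Rac2, which encode cytosolic partners of the enzyme, fell steeply in the forebrain of microglia-depleted mice. Cybb, the gene of the catalytic subunit, was close to the detection limit in both groups and did not pass the test. The 7 genes described here were chosen by symbol from the 53278 rows of the count table: Cybb, Cyba, Ncf1, Ncf4, Rac2, Rac1 and Nox4. All 7 were in the table and all 7 passed the filter on low counts that left 20140 genes for testing. The RNA-seq libraries came from total RNA of 8 whole forebrains, each from a male C57BL/6J mouse of 10 to 20 weeks. The depleted group (n = 4) received PLX3397 in the food over 9 days, a drug that blocks the survival receptor of microglia, CSF1R, and also other kinases such as KIT. The control group (n = 4) received control food; the labels name no genetic change in either group. The series title concerns microglia, CD39 and cerebral blood flow, and the comparison of the groups shows which forebrain transcripts differed with the drug food. Each sample is a separate mouse, so errors are spreads between mice (SD) unless a standard error (SE) of the model is named.

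The phagocyte NADPH oxidase moves electrons from NADPH across a membrane onto oxygen and so makes superoxide. Its catalytic chain, gp91phox (NOX2, encoded by Cybb), sits in the membrane with the small chain p22phox (Cyba). On activation cytosolic proteins, among them p47phox (Ncf1) and p40phox (Ncf4), join them together with a Rac GTPase, which in blood leukocytes is mainly RAC2. In the brain the complex is best known from microglia. NOX4 is a relative of NOX2 that pairs with p22phox, makes mostly hydrogen peroxide and needs none of the cytosolic subunits, and RAC1 is a GTPase of most cell types that also remodels the actin cytoskeleton.

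Libraries held 48455538 to 68406688 counts. Of 12 microglia marker genes 12 fell (edgeR's quasi-likelihood test with Benjamini-Hochberg adjustment over all genes tested, adjusted p under 0.05), with a summed level of 268.9 to 324.7 CPM (counts scaled to library size with TMM factors) in the controls and 16.2 to 22.8 CPM after depletion. Of 8 border macrophage markers 5 were tested and 3 fell (summed level 12.6 to 17.7 CPM against 3.17 to 5.96 CPM). In the controls most of that sum was Stab1, at 11.7 ± 1.89 CPM. After depletion Stab1 was at 2.18 ± 0.513 CPM, about level with Cd163, another of the 5. Cd163 was at 0.956 ± 0.466 CPM in controls and 2.15 ± 1.05 CPM after depletion (log2 fold change 1.18, edgeR adjusted p = 0.380). Markers of blood leukocytes, which also carry the phagocyte oxidase, were low in both groups, though in the range of the weakest oxidase genes. The 9 neutrophil markers summed to 0.438 to 1.47 CPM in the controls and 0.288 to 0.721 CPM after depletion. Ly6g, a surface protein that defines mouse neutrophils, was at 0 in all 8 libraries. Taking 3 counts as the upper bound for a count of 0 gives up to 0.0618 CPM in any 1 library. The 4 monocyte markers summed to 0.240 to 0.349 CPM against 0.109 to 0.305 CPM, and the 6 lymphocyte markers to 0.536 to 1.22 CPM against 0.432 to 0.592 CPM. The summed ranges of all 3 lists overlapped between the groups. From these 9, 4 and 6 markers, S100a8 (54 against 13 counts in all), Ccr2 (31 against 7) and Cd79b (27 against 3) are named after their values were seen. Each had a lower CPM in every depleted mouse than in every control mouse, as did 3.5% of all genes tested. All 3 were too low to be tested. Counts of hypothalamic genes differed between mice as well, and the labels name no difference in dissection. Control mice 2 and 3 and depleted mice 2 and 3 had 1249 to 2081 counts of Hcrt, a neuropeptide gene of the lateral hypothalamus. The other 4 mice had 4 to 12. Depleted mouse 4, one of those 4, still had 55.3 CPM over 4 hypothalamus markers, against 2.64 to 7.51 CPM in the other 3 and 133 to 177 CPM in the mice with many Hcrt counts. The mean log2 CPM of 8 striatal neuron markers was 4.45 to 6.99 in control and 5.98 to 7.99 in depleted mice.

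Of the 7 genes, 3 were called lower and 0 higher by edgeR, which by the same rule called 1.11% of all tested genes lower and 0.0546% higher. Ncf1, Ncf4 and Rac2 were the 3 that fell. DESeq2 called 4 lower, Cyba being the addition (1.72% of all genes lower, 0.586% higher), and limma-voom called 3 lower (1.12% lower, 0.0447% higher). Both called 0 higher, and 0 were higher at an unadjusted p under 0.05 (5.38% of all genes). The median log2 fold change of the 7 was -1.01, beside -0.00038 over all genes tested. In 4 of the 7 (Ncf1, Ncf4, Rac2 and Cyba) every depleted mouse lay below every control mouse, as in 3.5% of all genes tested, and in 0 every depleted mouse lay above (2.28% of all genes). In bulk tissue fewer cells of a type and less RNA per cell cannot be told apart. The border macrophage markers that fell (Stab1, Mrc1 and F13a1) and the leukocyte markers S100a8, Ccr2 and Cd79b were lower in the same mice. The part of border macrophages and blood leukocytes in the falls of the oxidase genes was not tested.

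**Figure D1:**
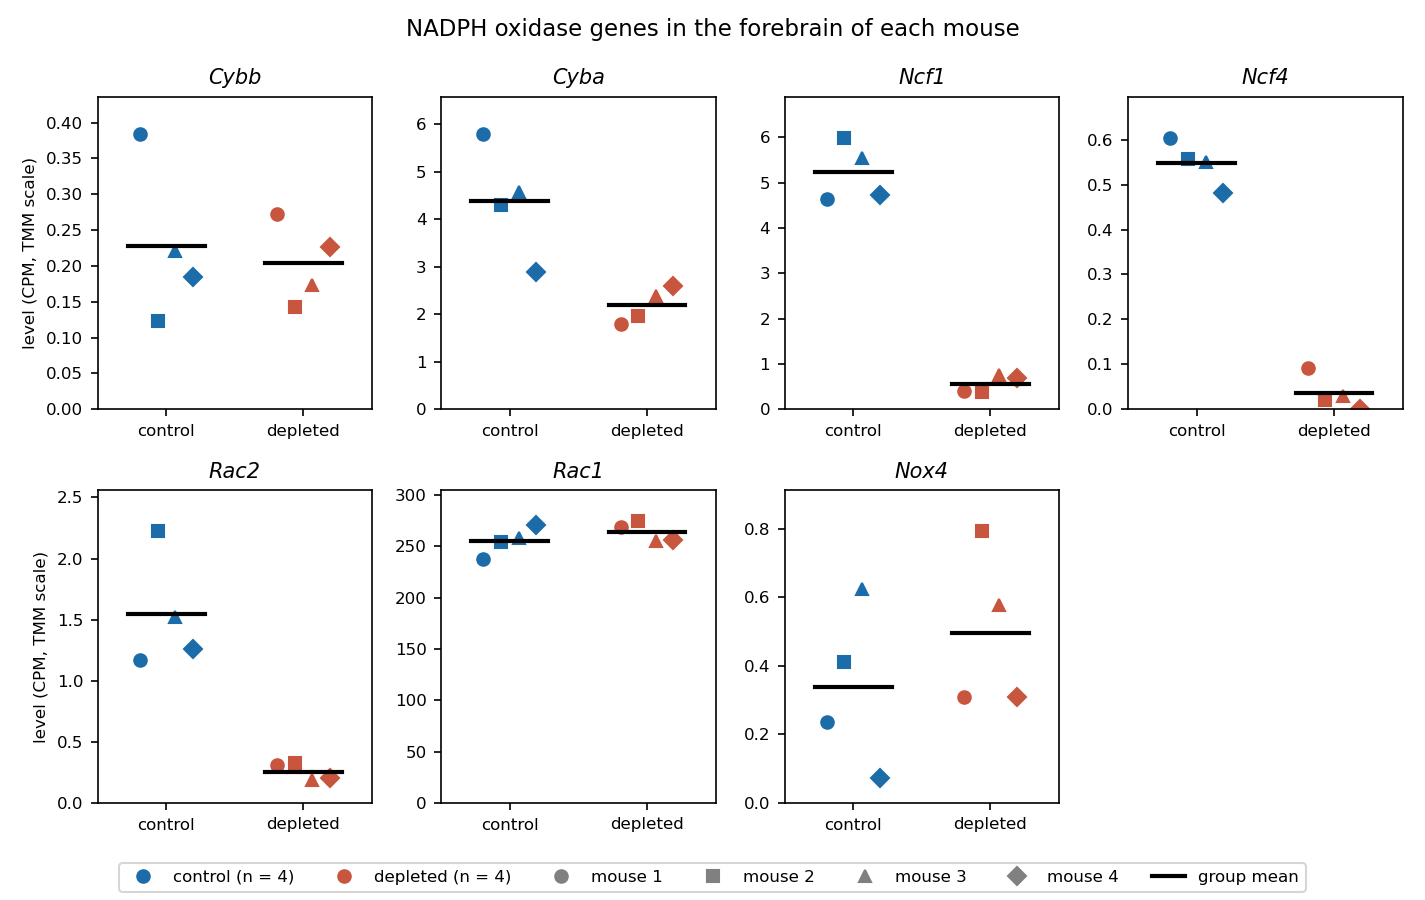
Level of the 7 oxidase genes in each mouse (vertical axis: CPM on the TMM scale; each point is 1 mouse, the marker shape is its replicate number and bars are group means; n = 4 per group). Ncf1, Ncf4, Rac2 and Cyba separate the groups, with Ncf1 at 4.64 to 5.99 CPM in controls against 0.386 to 0.765 CPM after depletion, while Cybb, Rac1 and Nox4 overlap.

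Start regions of 3 of the phagocyte oxidase genes are shown first, because they span a gene that fell, one that lay lower without passing the test and one whose groups overlapped. The RefSeq promoter table (GRCm38.p6) held entries for 4 of the 7 genes, Ncf1, Cyba, Cybb and Nox4; Ncf4, Rac1 and Rac2 are named only. The 100 bases upstream of the RefSeq start site are printed in lower case on the strand of the gene, at chr5:134229626-134229725 (minus strand) for Ncf1, chr8:122432941-122433040 (minus strand) for Cyba and chrX:9469325-9469424 (minus strand) for Cybb. The RefSeq start of Cybb lies inside the gene span given below (chrX:9435252-9487771), not at its upstream end.
Ncf1: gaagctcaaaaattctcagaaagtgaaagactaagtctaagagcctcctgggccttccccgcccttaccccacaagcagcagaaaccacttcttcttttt
Cyba: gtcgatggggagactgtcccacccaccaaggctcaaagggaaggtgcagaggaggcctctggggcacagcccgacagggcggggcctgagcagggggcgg
Cybb: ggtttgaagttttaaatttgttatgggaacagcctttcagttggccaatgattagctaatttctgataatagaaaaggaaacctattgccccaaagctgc
The 3 regions differ in base composition. Over 300 bases (250 before to 50 after the start) the GC content was 54% for Ncf1, 60.7% for Cyba and 35.3% for Cybb, against a median of 52.7% over the 32851 promoters of the table, and it was 68.3% for Nox4. The Cybb region thus lay at percentile 4.14 of all promoters and the Nox4 region at percentile 88.2. The core motif of the myeloid transcription factor PU.1, searched as GAGGAA on both strands, was present in 28.3% of promoters of the same length. Among the 4 genes it was found once, downstream of the start of Cybb on its opposite strand, which says only that these letters are or are not in the window.

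Neither gene of the membrane pair passed the test. Cyba, the gene of the p22phox chain (chr8:122424776-122432930, minus strand, mm10), stood at 5.79, 4.30, 4.58 and 2.89 CPM in control mice 1 to 4 and at 1.80, 1.97, 2.38 and 2.59 CPM in depleted mice 1 to 4. The groups did not overlap, although control mouse 4 was only slightly above depleted mouse 4. The depleted mean was 49.8% of the control mean (4.39 ± 1.19 against 2.19 ± 0.365 CPM). The log2 fold change of -1.01 (SE 0.21, 95% interval -1.48 to -0.53) did not pass the test (edgeR, adjusted p = 0.0729). Cyba did pass in DESeq2 (adjusted p = 7.25e-04), without the filter on low counts (0.0298) and without control mouse 4 (0.0110), and over all 19 alternatives its adjusted p ran from 7.25e-04 to 0.667, with the same sign in each.

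Cybb, the gene of the catalytic chain (chrX:9435252-9487771, minus strand), was close to the detection limit in both groups, although it is known as a gene of microglia. It had 21, 6, 12 and 10 counts in control mice 1 to 4 and 15, 7, 12 and 11 counts in depleted mice 1 to 4, or 49 against 45 in all. The mean level was 0.228 ± 0.111 CPM without and 0.203 ± 0.0574 CPM with the drug. The ranges overlapped almost entirely, and the highest and the lowest of the 8 values both belonged to control mice. The count table does not show how reads of Cybb were assigned, and the ratios to Cybb and its place in the order per length rest on these few reads. The log2 fold change was -0.18 (SE 0.39, 95% interval -1.04 to 0.69, edgeR adjusted p = 0.915), and it passed in 0 of the 17 alternatives in which it was tested. Its sign turned without control mouse 1 (0.19) and with the striatum score as a covariate (0.26). A fall of the size seen for Ncf1 lies outside that interval, and a fall to the level left for Cyba lies at its edge, so a smaller fall was not detectable at this depth.

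The 2 chains were compared directly by the ratio of Cyba to Cybb within each mouse, on log2 CPM with a prior count of 2. It was 3.79, 4.76, 4.16 and 3.72 in control mice 1 to 4 and 2.57, 3.49, 3.53 and 3.32 in depleted mice 1 to 4. Every depleted mouse was below every control mouse, and depleted mouse 1 was the lowest. The difference of -0.88 had the smallest p that 4 against 4 mice allow (two-sided exact permutation over the 70 splits, p = 0.0286), which after adjustment over the 4 ratios tested was 0.0571 and did not pass.

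Both cytosolic subunit genes among the 7 fell. Ncf1, the gene of the organizer subunit p47phox (chr5:134220053-134229625, minus strand), stood at 4.64, 5.99, 5.55 and 4.72 CPM in control mice 1 to 4 and at 0.399, 0.386, 0.765 and 0.679 CPM in depleted mice 1 to 4. Single depleted mice kept between 7.40% (mouse 2) and 14.6% (mouse 3) of the control mean. The groups were far apart, with a log2 fold change of -3.21 (SE 0.23, edgeR adjusted p = 5.60e-05), and Ncf1 passed in all 19 alternatives. Of the 3663 exon bases of Ncf1, 408 are shared with Gtf2ird2 on the opposite strand; whether the counting used strand is not given in the sources used here. Gtf2ird2, the gene of a transcription factor, was at 25.7 ± 2.03 CPM in controls and at 23.3 ± 0.450 CPM after depletion.

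Ncf4, the gene of p40phox, which binds a membrane lipid of the phagosome (chr15:78244801-78262580, plus strand), was nearly lost. It had 33, 27, 30 and 26 counts in control mice 1 to 4 and 5, 1, 2 and 0 counts in depleted mice 1 to 4. On the CPM scale the control mice were at 0.603, 0.556, 0.551 and 0.481 and the depleted mice at 0.0907, 0.0203, 0.0289 and 0. The control mice were close to each other, and depleted mouse 1 held 5 of the 8 reads left. With 3 counts as the upper bound, the count of 0 in depleted mouse 4 stands for a level of up to 0.0617 CPM. Over the summed counts, 116 against 8, 6.57% of the control level was left (exact 95% interval 2.77% to 13.4%, covering counting error only). The log2 fold change was -3.85 (SE 0.50, edgeR adjusted p = 0.00278), and without depleted mouse 1 it was -4.78 (adjusted p = 0.00144).

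The ratio of Ncf4 to Ncf1 gave a difference of 0.03 on the log2 scale with overlapping groups (exact two-sided permutation test, p = 0.943, adjusted p = 0.943 over the 4 ratios). It spread from -4.28 to -1.77 over the depleted mice and from -3.35 to -2.87 over the control mice, so a difference between the falls of these 2 genes was not detectable at the depth of Ncf4, and with a prior count of 0.5 its value was -0.86.

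**Figure D2:**
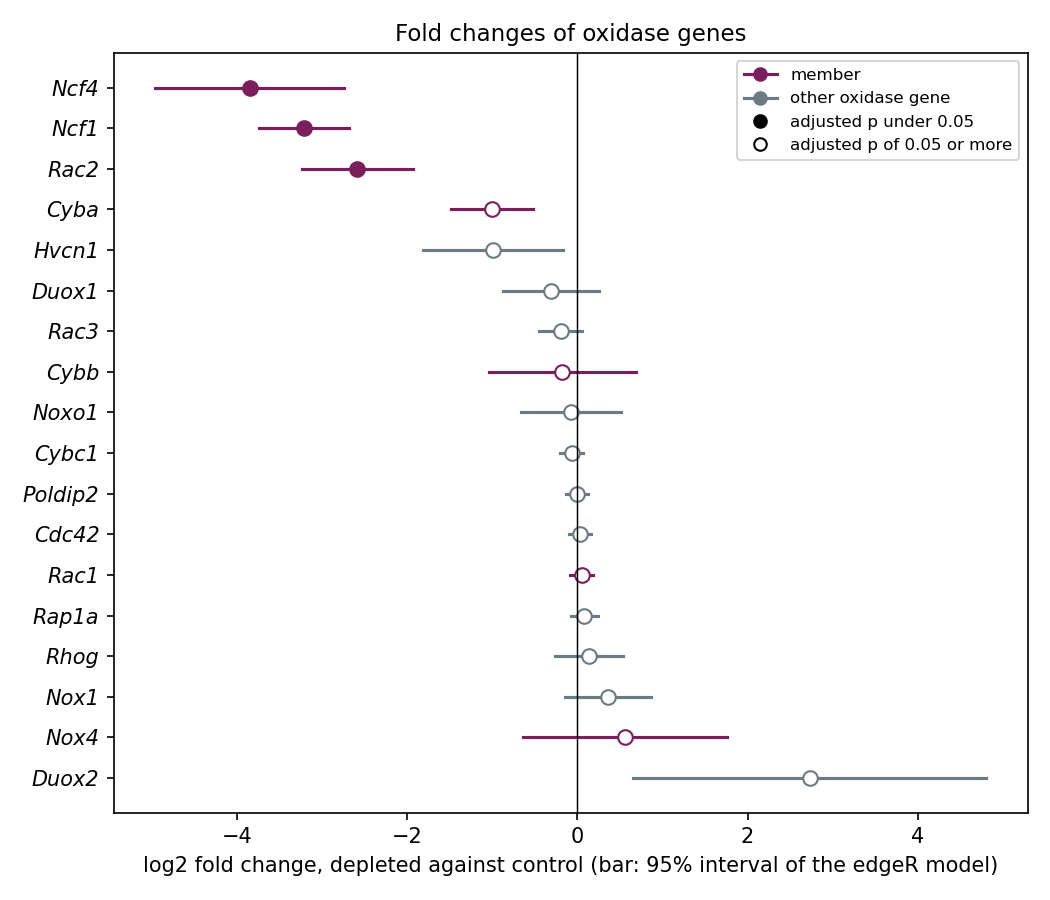
Log2 fold change of the 18 tested oxidase genes, depleted against control (horizontal axis; bars are 95% intervals of the edgeR model, filled points have an adjusted p under 0.05). Ncf4, Ncf1 and Rac2 are the filled points, all on the lower side; the interval of Rac1 is narrow around 0 and that of Cybb spans -1.04 to 0.69.

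Of the 2 Rac genes among the 7, Rac2 fell and Rac1 did not pass the test. Rac2, the Rac of blood cells and macrophages (chr15:78559167-78572783, minus strand), stood at 1.17, 2.22, 1.53 and 1.26 CPM in control mice 1 to 4 and at 0.308, 0.325, 0.188 and 0.206 CPM in depleted mice 1 to 4. Control mouse 2 was the highest, and every depleted mouse was far below every control mouse. Rac2 fell by 2.59 on the log2 scale (SE 0.29, edgeR adjusted p = 0.00105), to 16.6% of the control level.

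Rac1 (chr5:143503634-143528036, minus strand) stood at 238, 254, 258 and 271 CPM in control mice 1 to 4 and at 269, 275, 256 and 256 CPM in depleted mice 1 to 4. The groups overlapped, and the whole spread of the 8 mice was small beside the level. The log2 fold change was 0.05 (SE 0.06, 95% interval -0.09 to 0.19, edgeR adjusted p = 0.832), an interval that leaves out changes of the size seen in the genes that fell. Of its 4496 exon bases 2309 are shared with Daglb, a diacylglycerol lipase gene on the opposite strand, which was at 31.3 ± 3.57 CPM in controls and at 30.3 ± 3.39 CPM after depletion.

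The ratio of Rac1 to Rac2 was 7.62, 6.81, 7.37 and 7.71 on the log2 scale in control mice 1 to 4. In depleted mice 1 to 4 it was 9.61, 9.57, 10.2 and 10.0. The groups were apart by 2.47 (two-sided exact permutation, p = 0.0286, again the lowest value possible, and adjusted p = 0.0571 over the 4 ratios).

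**Figure D3:**
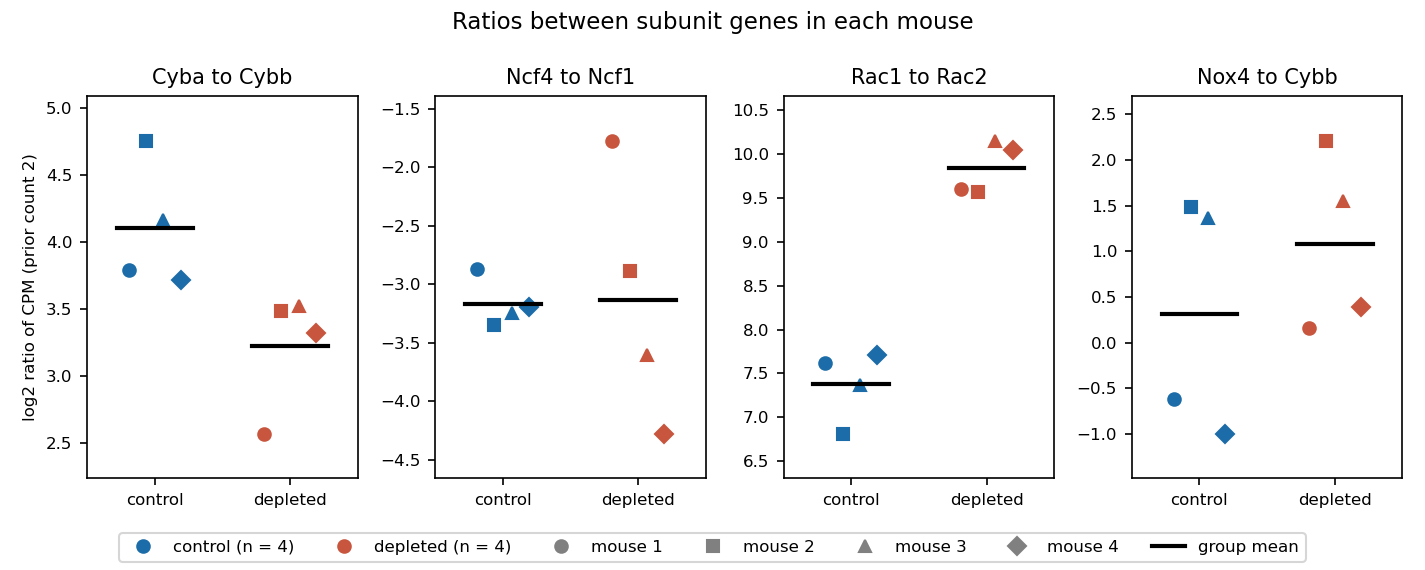
Log2 ratio of CPM between pairs of subunit genes in each mouse (vertical axis, prior count 2; points are mice, bars are group means, n = 4 per group). Cyba to Cybb is lower and Rac1 to Rac2 is higher in every depleted mouse than in every control mouse, while Ncf4 to Ncf1 and Nox4 to Cybb overlap.

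Nox4, the gene of the hydrogen peroxide-producing relative of NOX2 (chr7:87246096-87398710, plus strand), was weak and variable. It stood at 0.237, 0.412, 0.625 and 0.0740 CPM in control mice 1 to 4 and at 0.308, 0.793, 0.577 and 0.308 CPM in depleted mice 1 to 4. The groups overlapped, with a log2 fold change of 0.56 (SE 0.54, 95% interval -0.64 to 1.76, edgeR adjusted p = 0.771), and it passed in 0 of 18 alternatives. The mice with at least 100 Hcrt counts were the higher ones in both groups: 0.412 to 0.625 CPM against 0.0740 to 0.237 CPM in control mice, and 0.577 to 0.793 CPM against 0.308 to 0.309 CPM in depleted mice. Whether hypothalamic tissue in the samples had a part in the level of Nox4 was not tested. Depleted mouse 4 counts here among the mice with few Hcrt counts in spite of its other hypothalamus markers. The ratio of Nox4 to Cybb differed by 0.77 on the log2 scale with overlapping groups (exact two-sided permutation test, p = 0.371, adjusted p = 0.495).

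Read counts per length place the subunits on 1 scale. In control forebrains the level, in CPM per kilobase of exon, was 56.7 ± 3.04 for Rac1, 4.22 ± 1.15 for Cyba and 1.43 ± 0.180 for Ncf1. Rac1 was thus an order above any other subunit gene. Next came Rac2 at 0.498 ± 0.154 and Ncf4 at 0.271 ± 0.0249 CPM per kilobase. The last in the order were Nox4 at 0.0398 ± 0.0279 and Cybb at 0.0393 ± 0.0191 CPM per kilobase. Nox4 and Cybb did not differ beyond their spread, and the order of the 7 genes was the same with the longest transcript as the length. In depleted forebrains Rac1 stood at 58.7 ± 2.16, Cyba at 2.10 ± 0.352 and Ncf1 at 0.152 ± 0.0528 CPM per kilobase. There Rac2 (0.0827 ± 0.0226), Nox4 (0.0586 ± 0.0277), Cybb (0.0350 ± 0.00988) and Ncf4 (0.0173 ± 0.0193) followed, so Ncf4 moved to the last place.

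**Figure D4:**
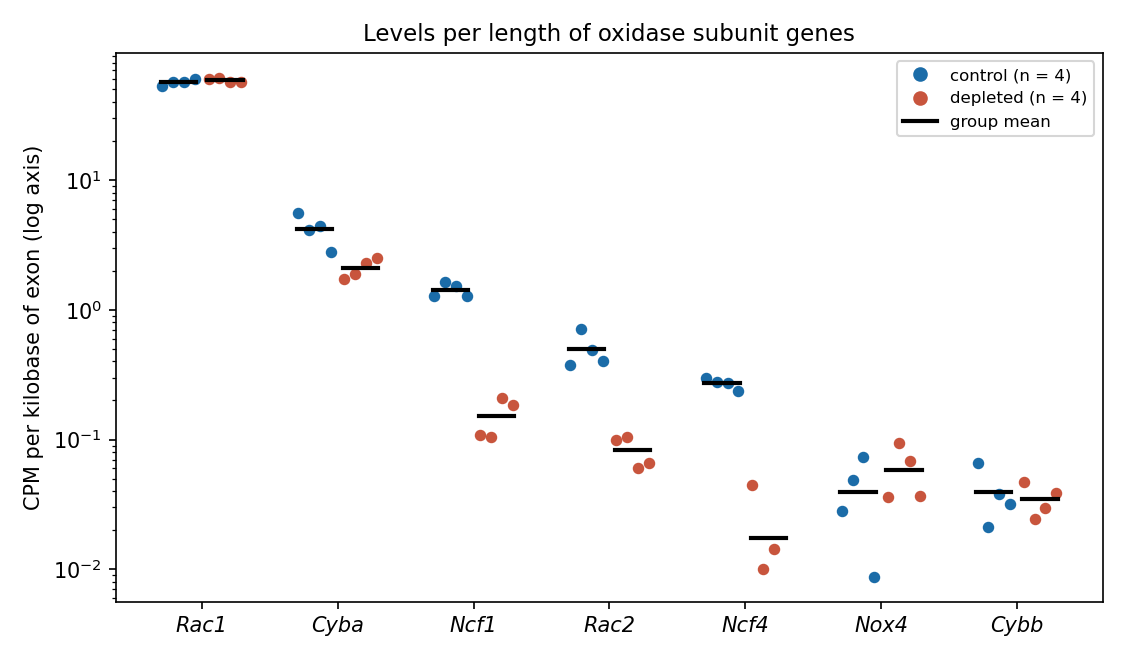
Level per exon length of the 7 oxidase genes (vertical axis: CPM per kilobase of exon, log axis; points are mice, bars are group means, n = 4 per group), in the order of the control means. Rac1 lies between 52.9 and 61.2 in all mice; Ncf1, Rac2 and Ncf4 drop in the depleted mice, and depleted mouse 4 has no point for Ncf4 because its value is 0.

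Of the genes that fell, Ncf1 and Rac2 did so by less than the mean of the 12 microglia markers. The log2 fold changes of these markers ran from -6.50 to -1.88, so single markers also fell by less than Ncf1 or Rac2. Counts of Ncf4 were too few to tell. For each of the 7 genes the mean log2 CPM of the 12 microglia markers was subtracted within each mouse, and the difference between groups was tested. For Ncf1 this contrast was -1.92, -1.82, -1.78 and -1.96 in control mice 1 to 4 and 0.15, 0.71, 0.05 and -0.07 in depleted mice 1 to 4. It was higher in every depleted mouse, by 2.08 on the log2 scale. Ncf1 shares 408 exon bases with Gtf2ird2, and whether reads of that gene are among those left for Ncf1 was not tested. For Rac2 the difference was 2.86 and for Ncf4 it was 2.11. It was 4.31 for Cyba, 5.19 for Cybb, 5.33 for Rac1 and 5.97 for Nox4. Each of the 7 had the smallest p possible (two-sided exact permutation, p = 0.0286, and also 0.0286 when adjusted over the 7), and in each of the 7 every depleted mouse was above every control mouse. A gene without any change would give the same p, because the marker mean itself fell in every depleted mouse. For Rac1, Nox4, Cybb and Cyba, which did not pass in edgeR, the contrast mostly restates the fall of the markers. The contrast of Ncf4 depended on the settings. With a prior count of 0.5 its difference was 1.37 (exact permutation p = 0.314). When any 1 control mouse was left out its adjusted p was 0.0571. Control counts were 26 to 33 for Ncf4, 6 to 21 for Cybb and 4 to 34 for Nox4. With a prior count of 2 a complete loss of any of these 3 would have given the same p. Their tests could therefore not show a fall as deep as that of the marker mean.

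The falls of Ncf1, Ncf4 and Rac2 had the same sign in all alternatives fitted, also when the mice with at least and with under 100 Hcrt counts were fitted apart. Ncf1 passed among the 4 mice with at least 100 (log2 fold change -3.28, edgeR adjusted p = 0.0308) and among the 4 with under 100 (-3.11, adjusted p = 0.0104). Rac2 had -2.89 (adjusted p = 0.0748) and -2.21 (adjusted p = 0.0551) in these subsets of 2 against 2 mice. Ncf4 had -4.33 (adjusted p = 0.0575) and -3.44 (adjusted p = 0.170) there, so neither passed in a subset. With the striatum score as a covariate all 3 passed, at -3.56 for Ncf1, -3.87 for Ncf4 and -2.81 for Rac2.

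None of the further oxidase genes reported passed the test. Of 15 such genes of the family and its partners, 11 were tested, and edgeR, DESeq2 and limma-voom called 0 lower and 0 higher. At an unadjusted p under 0.05 in edgeR 1 was lower and 1 higher (5.6% and 5.38% of all genes). Their median log2 fold change was -0.01. Hvcn1, the proton channel that balances the charge moved by the oxidase, was at 0.767, 1.65, 0.919 and 0.777 CPM in control mice 1 to 4 and at 0.490, 0.224, 0.664 and 0.658 CPM in depleted mice 1 to 4. The groups did not overlap, but the log2 fold change (95% interval -1.82 to -0.17) did not pass (edgeR adjusted p = 0.369), and it was -1.47 among the mice with at least 100 Hcrt counts, -0.42 among the others and -1.79 with the striatum score as a covariate, passing in none of these. Hvcn1 shares 1574 of its 3563 exon bases with Tctn1 on the opposite strand. Cybc1, the chaperone of the membrane pair, listed under an older symbol, had a log2 fold change of -0.07, and Rap1a, a GTPase that copurifies with the membrane pair, had 0.08. The GTPase genes Rac3 (-0.20), Cdc42 (0.04) and Rhog (0.14) and Poldip2 (-0.01), whose product binds p22phox, had edgeR adjusted p between 0.564 and 0.972.

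Among the nonphagocytic oxidases, Nox1 had a log2 fold change of 0.36, its organizer Noxo1 -0.07 and the dual oxidase gene Duox1 -0.31, none of which passed (edgeR adjusted p between 0.616 and 0.951). Noxo1 shares 2122 of its 3013 exon bases with Tbl3 and Nox1 399 of its 3307 with Cstf2, both on the opposite strand. Duox2, the other dual oxidase gene, had 3, 0, 10 and 0 counts in control mice 1 to 4 and 23, 2, 49 and 23 counts in depleted mice 1 to 4. Its log2 fold change of 2.73 (SE 0.93) did not pass (edgeR adjusted p = 0.329). Depleted mice 1, 3 and 4, the high ones, were also the 3 mice with the highest striatum scores (7.64 to 7.99). Control mouse 2 (score 6.99) had 0 counts, control mouse 3 (6.37) had 10 and depleted mouse 2 (5.98) had 2. The score also ran higher in the depleted group (mean 7.32 against 5.83), and its part in the level of Duox2 was not tested. With the score as a covariate the log2 fold change was 0.92. Over its 17 alternatives it ran from that value to 4.31 (without control mouse 3), with an adjusted p no lower than 0.0688 (without depleted mouse 2). Nox3 (26 counts in control against 12 in depleted mice), the maturation factor genes Duoxa1 (17 against 10) and Duoxa2 (1 against 2) and the activator gene Noxa1 (0 in all mice) were too low to be tested.

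Upstream of the oxidase, some of the genes that link receptors to its assembly fell as well. Of 13 activation genes 6 fell and 7 did not pass in edgeR (1.11% of all genes were lower). DESeq2 called 8 lower, with Plcg2 and Pik3cd added, and limma-voom 7, with Plcg2 added. At an unadjusted p under 0.05 in edgeR 8 were lower (5.6% of all genes), and in 8 the depleted mice did not overlap the control mice and were lower (3.5%). By each of these counts 0 were higher, and the median log2 fold change over the 13 was -1.001. The subunits of complement receptor 3, Itgam (log2 fold change -6.07, SE 0.46) and Itgb2 (-4.05, SE 0.41), fell with the Rac exchange factor genes Vav1 (-5.58, SE 0.38) and Dock2 (-3.43, SE 0.47). Pik3cg, a lipid kinase subunit gene, fell by 2.60 (SE 0.23) and Syk, a tyrosine kinase gene that acts below immune receptors, by 1.12 (SE 0.18). The edgeR adjusted p of these 6 was at most 0.0130. Without depleted mouse 4 Itgam was at -7.02 and without depleted mouse 3 Dock2 at -4.15. Dock2 did not pass among the mice with at least 100 Hcrt counts (-3.15, adjusted p = 0.112). Syk had the largest adjusted p of the 6 and passed in 13 of 19 alternatives. It did not pass under the replicate block (log2 fold change -1.14, adjusted p = 0.0649), with a covariate for the striatum score (log2 fold change -1.03, adjusted p = 0.231), among the mice with at least 100 Hcrt counts (-0.82) or without control mouse 3, depleted mouse 1 or depleted mouse 4 (adjusted p between 0.0520 and 0.0526). Among the 7 that did not pass, named here after their values were seen, Plcg2 (edgeR adjusted p = 0.0738) and Pik3cd (0.0589) came closest, and Prkcd, Prkcb and Arhgdib had log2 fold changes of 0.32, 0.29 and 0.19. Itgam shares exons on its own strand with the annotated gene Gm49368, so reads may be split between the 2.

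Enzymes on either side of the reaction did not pass. Of 25 antioxidant enzyme genes, which clear superoxide and peroxide, 0 fell and 0 rose in edgeR. At an unadjusted p under 0.05 in edgeR 0 were lower and 2 higher (all genes tested: 5.6% and 5.38%). DESeq2 called 1 higher (0.586% of all genes) and limma-voom 0 (0.0447%). In 2 of the 25, 1 of them Prdx6, every depleted mouse lay above every control mouse (2.28% of all genes), and in 0 below (3.5%). The smallest p belonged to the peroxiredoxin genes Prdx6 (log2 fold change 0.21, SE 0.06, edgeR adjusted p = 0.200) and Prdx1 (0.24, SE 0.10, adjusted p = 0.425), and Prdx6 was the gene DESeq2 called (adjusted p = 0.00641). Of 11 genes that supply NADPH, 0 fell and 0 rose in edgeR, DESeq2 and limma-voom. At an unadjusted p under 0.05 in edgeR 1 was higher (5.38% of all genes). It was G6pdx, the first enzyme of the pentose phosphate pathway (0.24, SE 0.10, edgeR adjusted p = 0.437), followed by Taldo1 of the same pathway (0.12, SE 0.08, adjusted p = 0.629). The medians were 0.06 for the antioxidant enzymes and 0.04 for NADPH supply.

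**Figure D5:**
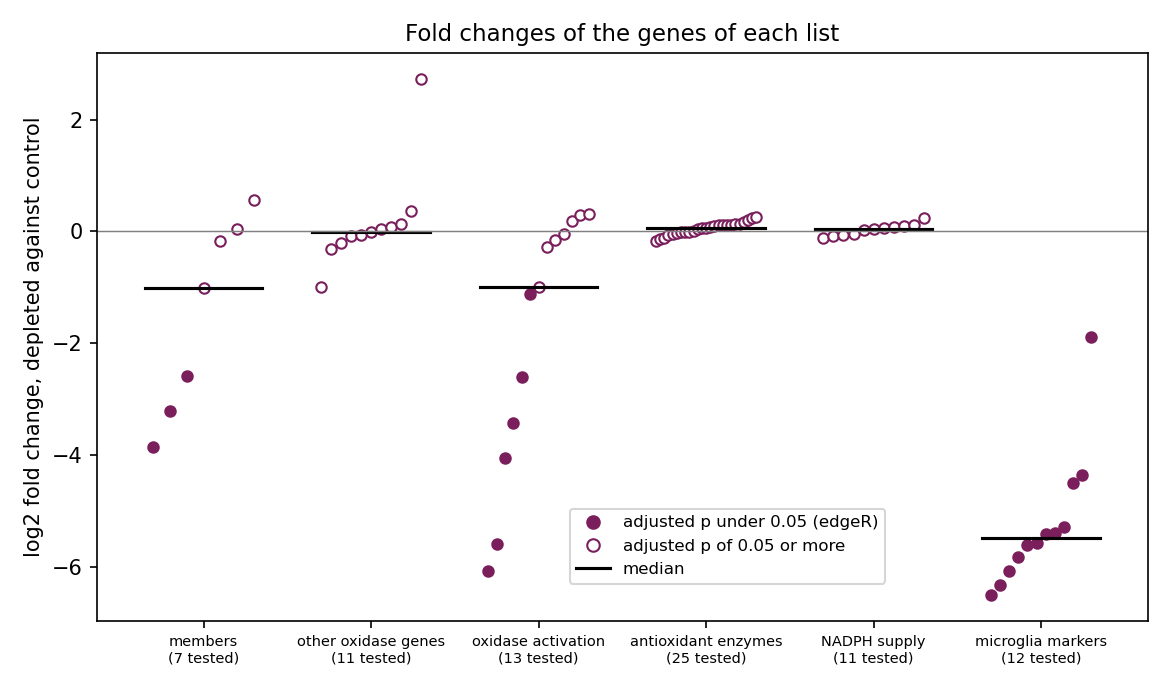
Log2 fold change, depleted against control, of each tested gene of 6 lists (vertical axis; points are genes, filled where the edgeR adjusted p is under 0.05, bars are medians). The microglia markers center on -5.49 and range from -6.50 to -1.88. The 7 oxidase genes range from -3.85 to 0.56, and the antioxidant and NADPH supply genes lie close to 0.

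The genes whose levels across the 8 mice were most like those of the 3 genes that fell were found by the root mean square difference of log2 CPM, centred on the control mean, among 13988 genes whose mean log2 CPM in control mice was 1 or more. A smaller value means a closer match. For Ncf1 they were Fyb, an adaptor gene of immune receptor signalling (0.173), Lyz2, the lysozyme gene of myeloid cells (0.321), and Lag3, an inhibitory receptor gene (0.387). For Rac2 they were Tmem173, the gene of the DNA-sensing adaptor STING (0.341), Cmklr1, the chemerin receptor gene (0.367), and Ptpn6, the gene of the phosphatase SHP-1 (0.387). For Ncf4 they were Tifab (0.524), the GTPase-activating protein gene Arhgap30 (0.525) and Havcr2, which encodes the receptor TIM-3 (0.529), a looser match. Ncf4 (0.548 CPM in controls) and Rac2 (1.54 CPM) lay below the cut themselves, so no gene at their own level could be named. The match of Ncf4 also rests on 0 to 5 counts in the depleted mice. Fyb and Ptpn6 share exon bases with other annotated genes.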

How the data were processed

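Bulk RNA-seq of the whole forebrain of 8 mice was analysed from the deposited table of raw counts per gene symbol, whole numbers that the authors had not normalized. The submitters' processing notes name STAR, FastQC, MultiQC, DESeq and DESeq2 and the mm10 build; for versions, annotation, strand setting and kit, the entry is not given in the sources used here. GENCODE M21, which gave positions, exon lengths and overlaps, matched 93.3% of symbols.

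In R 4.3.3, edgeR 4.0.16 filtered genes (filterByExpr), scaled libraries (TMM) and compared depleted with control mice by its quasi-likelihood test (glmQLFTest), with adjustment over all 20140 genes; the biological coefficient of variation was 16.1%. Standard errors and intervals came from that model. Ratios used log2 CPM (prior count 2) and exact permutation tests (scipy 1.17.1). Groups came from the sample titles. The scripts were tested on simulated data. Alternatives were other scalings and filters, DESeq2 1.42.0, limma-voom (limma 3.58.1), the replicate number as a block, the striatum score or Hcrt reads as covariates, and each mouse left out. Splitting the mice by Hcrt reads was added after seeing the data. Replicates of a group differed by at least 11.2 times the counting noise (chi-square per degree of freedom), so each library was counted once.

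Named genes were the 7 members, every gene of the further oxidase list (1 gene of the complex is not reported here), the genes past the threshold of each other pathway list or the 2 with the smallest p, and the 3 most similar genes per called member. The members and lists were chosen with earlier results of these data known.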

Additional observations from a re-analysis of the deposited data

Results flagged for a closer look

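In 2 oxidase genes 1 mouse stood apart from the other 3 of its group by Dixon's ratio (the gap to the nearest mouse over the range), above its 95% critical value for 4 samples, among 36 groups checked, of which chance flags about 1 in 20. Duox1 was highest in control mouse 3, at a log2 CPM of -1.01 against -1.62 to -1.59 in the other control mice (ratio 0.946). These values rest on 25 counts against 14 to 16. Poldip2, whose product binds p22phox, was lowest in depleted mouse 3, at 6.44 against 6.54 to 6.56 (ratio 0.860). None of the 7 oxidase members was marked in this way.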

How the results depend on the processing

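The count of 3 oxidase members that fell was between 3 and 4 when single mice were left out, 3 with the replicate block and between 2 and 4 in the other alternatives over all 8 mice (Ncf4 fell below the filter of 1 CPM in 4 samples). In the subsets of 2 against 2 mice, with at least 100 Hcrt counts and with under 100, it was 1 in each, Ncf1 both times; fewer samples were fitted there. In DESeq2 the antioxidant genes that rose numbered 1 in place of 0; the cause was not tested. No result reversed past the threshold. The replicate numbers do not pair the mice (correlations of same-numbered deviations -0.28, -0.29, 0.60 and -0.08). With them as a block the contrasts to the microglia markers had p = 0.125 (exact sign-flip permutation, the smallest 4 pairs allow), and Syk lost its call (adjusted p = 0.0649). Depth limits Cybb, Ncf4, Nox4, Duox1 and Duox2, each with fewer than 50 counts in every library.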
